A study of Homo sapiens with 4 samples.

Results

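Cassette exons of 10 genes for heterogeneous nuclear ribonucleoproteins (hnRNPs) were examined in HEK293T cells with and without RBFOX2. The members were all events of HNRNPA1, HNRNPA2B1, HNRNPAB, HNRNPC, HNRNPD, HNRNPH1, HNRNPH3, HNRNPK, HNRNPM and HNRNPR in the authors' deposited table of skipped exons, taken by gene symbol. They numbered 57 of the 31408 events of the table and 47 of its 27483 unique exons. An event is an exon together with its pair of flanking exons, so that an exon with several possible partners is listed several times. No filter on low values was applied, and all 57 events carried a test result.

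Total RNA was depleted of ribosomal RNA and sequenced as 4 directional libraries from HEK293T, a human embryonic kidney cell line. Of these, 2 came from clones with the genotype WT (titles RBM9-WT-2-D5 and RBM9-WT-3-D4) and 2 from clones with the genotype RBFOX2 KO (RBM9-KO-2-A4 and RBM9-KO-3-G11). RBM9 is another name of RBFOX2. The same treatment is given for all 4 clones, namely transfection with PX459 and pgRGFP carrying guides on either side of RBFOX2, sorting of single cells, expansion and genotyping by PCR, so each library stands for 1 clone. The table contrasts a first with a second set of libraries and does not say which genotype is which, so every difference below is the first set minus the second set and none is a gain or loss on knockout. RBFOX2 itself had 0 events, so the knockout could not be checked here. The columns with values per library name no clone and were not used, hence no depth, junction count, inclusion level per library or spread over clones is given.

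As background, hnRNPs are abundant nuclear proteins that bind nascent transcripts and take part in splicing, export, stability and translation of mRNA. Many of them regulate the splicing of their own or each other's transcripts, often through exons that expose a transcript to nonsense-mediated decay. RBFOX2 binds GCATG and promotes or represses the inclusion of nearby exons depending on the side on which it binds.

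The exons on which the results turn and which lie wholly in coding sequence are shown first, so that their content can be set beside their values. Sequences are from GENCODE 29 transcripts, matched by exon length and intron lengths, and run 5′ to 3′ on the strand of the gene. Positions are those of the deposited table in hg19, per the submitters' processing notes. Capitals mark TAT and TAC codons in the reading frame, which encode tyrosine. The 36-nt exon of HNRNPA2B1 (chr7:26237451-26237486, minus strand) is exon 2 of 12 and distinguishes the B1 from the A2 protein. The 57-nt exon of HNRNPD (chr4:83292681-83292737, minus strand) is exon 2 of 9, and the 147-nt exon (chr4:83277690-83277836, minus strand) is exon 7 of 9. Together they define the protein isoforms of HNRNPD, an AU-rich element binding protein also called AUF1. The 177-nt exon of HNRNPR (chr1:23650049-23650225, minus strand) is exon 6 of 11 and encodes part of an RNA recognition motif.
HNRNPA2B1 36 nt: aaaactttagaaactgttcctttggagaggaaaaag
HNRNPD 57 nt: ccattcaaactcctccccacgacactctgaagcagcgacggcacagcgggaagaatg
HNRNPD 147 nt: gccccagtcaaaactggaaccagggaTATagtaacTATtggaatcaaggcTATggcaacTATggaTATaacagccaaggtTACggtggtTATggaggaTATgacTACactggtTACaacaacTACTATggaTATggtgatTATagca
HNRNPR 177 nt: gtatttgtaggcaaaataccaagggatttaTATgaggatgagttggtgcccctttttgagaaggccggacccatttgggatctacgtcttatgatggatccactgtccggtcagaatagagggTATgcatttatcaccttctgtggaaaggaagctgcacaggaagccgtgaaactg

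The differences of the hnRNP events were small. The authors' deposited table gave a median absolute difference in inclusion level, the share of junction reads for the form with the exon after scaling by length (0 to 1), of 0.007 over the 57 events and of 0.048 over all 31408 events. An absolute difference under 0.01 was listed for 35 hnRNP events (61.4%) and for 13.7% of all events. At the other end, 3 hnRNP events (5.26%) and 31.5% of all events reached 0.1. Coverage was not used, and its part in this contrast was not tested. The share with a p-value of 1 was alike, 52.6% of hnRNP events and 51.4% of all events.

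**Figure D1:**
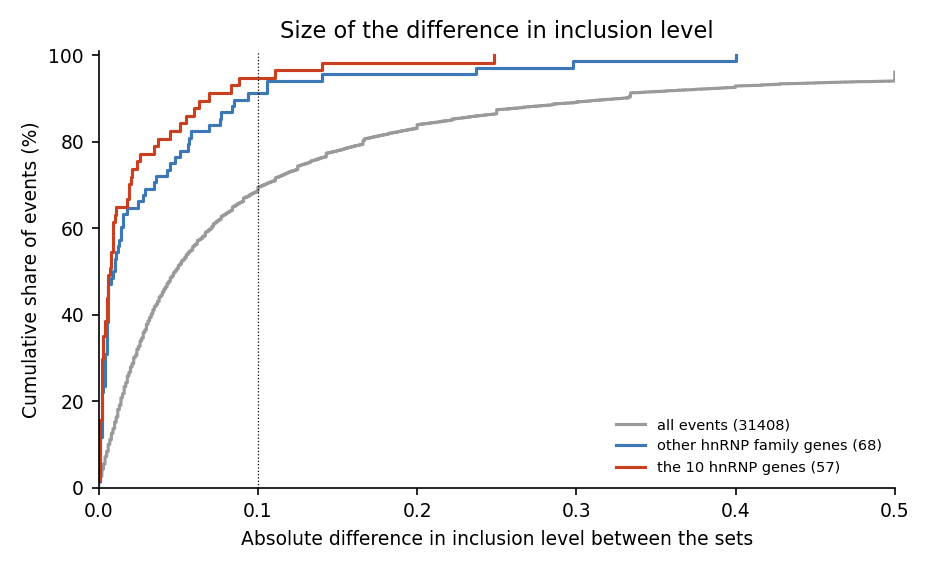
Cumulative share of events (percent, vertical axis) against the absolute difference in inclusion level between the sets (horizontal axis, whose upper end leaves out the largest differences), for the 57 events of the 10 hnRNP genes, 68 events of other hnRNP family genes and all 31408 events; the dotted line marks 0.1. The medians are 0.007, 0.0095 and 0.048.

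Calls required both a false discovery rate (FDR) under 0.05 and a difference of 0.1 or more in absolute value. Of the 57 hnRNP events 3 (5.26%) were called in the authors' deposited table, beside 5.15% of all events, so the share was near the background. Inclusion was higher in the first set for 2 of them (background 2.77%) and in the second set for 1 (background 2.38%). They were a 36-nt exon of HNRNPA2B1, a 46-nt exon of HNRNPC and a 163-nt exon of HNRNPC. By unique exon the count was 3 of 47, beside 5.73% of all exons.

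The FDR limit alone was passed by 8 of the 57 events (14%) in the authors' deposited table, beside 6.12% of all events. Coverage was not used, and its part in this and the later shares past the FDR limit was not tested. These 8 events belonged to 6 exons (background 6.78% of exons) of 4 genes: HNRNPA2B1, HNRNPC, HNRNPD and HNRNPR. HNRNPC held 4 of the 8, and these share splice junctions, so they are not separate observations. Of all 57 events, 6 (10.5%) passed with the higher inclusion in the first set, beside 3.30% of all events, and 2 (3.51%) with the higher inclusion in the second set, beside 2.81%. The same 8 were the hnRNP events with an unadjusted p-value under 0.05. The other 6 genes, HNRNPA1, HNRNPAB, HNRNPH1, HNRNPH3, HNRNPK and HNRNPM, had 0 of 30 events past the FDR limit and likewise 0 with an unadjusted p-value under 0.05 in the authors' deposited table. No other test was run on them, and a p-value that misses the limit does not show that inclusion was equal.

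**Figure D2:**
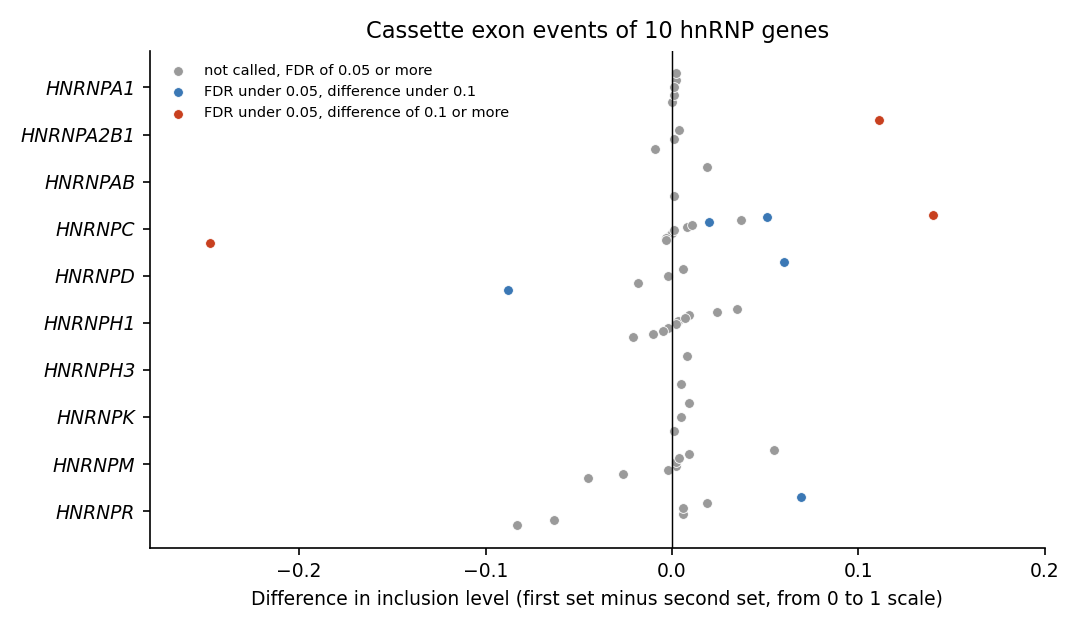
Difference in inclusion level (first set minus second set) of each of the 57 events, by gene; each point is 1 event of the deposited table, coloured by whether it passed the FDR limit and the minimum difference. HNRNPC spans the widest range, from -0.248 to 0.14, and all HNRNPA1 events lie between 0 and 0.002.

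HNRNPC, which binds uridine tracts in nascent RNA, had 12 events in 8 exons, of which 6 exons lay in the 5′ untranslated region and 2 in coding sequence. Both called events of HNRNPC were in the untranslated exons. The 46-nt exon (ENSG00000092199; chromosome 14, 21736782 to 21736827, minus strand) was listed with 3 pairs of partners, always after the same 95-nt exon. Joined to the 163-nt exon, its difference was 0.14 (FDR 0.00208) in the authors' deposited table. With the 277-nt exon further downstream as partner, the authors' deposited table gave 0.051 (FDR 0.0044). Its difference with the 26-nt exon as partner was 0.02 (FDR 0.000248) in the authors' deposited table, with the lowest p-value of the gene, 4.83e-06. The 46-nt exon was thus more included in the first set with all 3 partners, by amounts that ranged from 0.02 to 0.14. All 3 events count the same junction, from the 95-nt to the 46-nt exon across 629 nt, towards inclusion. Their common sign is therefore not agreement between separate observations.

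The 163-nt exon of HNRNPC (chromosome 14, 21731826 to 21731988, minus strand) went the other way in 1 of its 2 contexts. Between the 46-nt and the 26-nt exon, its difference in the authors' deposited table was -0.248 (FDR 0.0389), the largest in absolute value among the 57 events. Between the 109-nt exon, a longer form of the 95-nt exon with the same end, and the 26-nt exon it was 0.001 at a p-value of 1 in the authors' deposited table. The events overlap in their reads. The junction from the 46-nt to the 163-nt exon, across an intron of 4793 nt, counts towards inclusion both in the event at -0.248 and in the event at 0.14. These are the called events of HNRNPC, and neither was matched to an annotated transcript with this junction. Each was matched by its other flanking intron only, of 330 nt for the event at -0.248 and of 629 nt for the event at 0.14. The junction from the 46-nt to the 26-nt exon, across 5286 nt, counts towards skipping in the event at -0.248 and towards inclusion in the event at 0.02. The 163-nt exon was thus less included in the first set after the 46-nt exon, while after the 109-nt exon the listed difference was close to 0. The difference between these contexts was not tested.

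**Figure D3:**
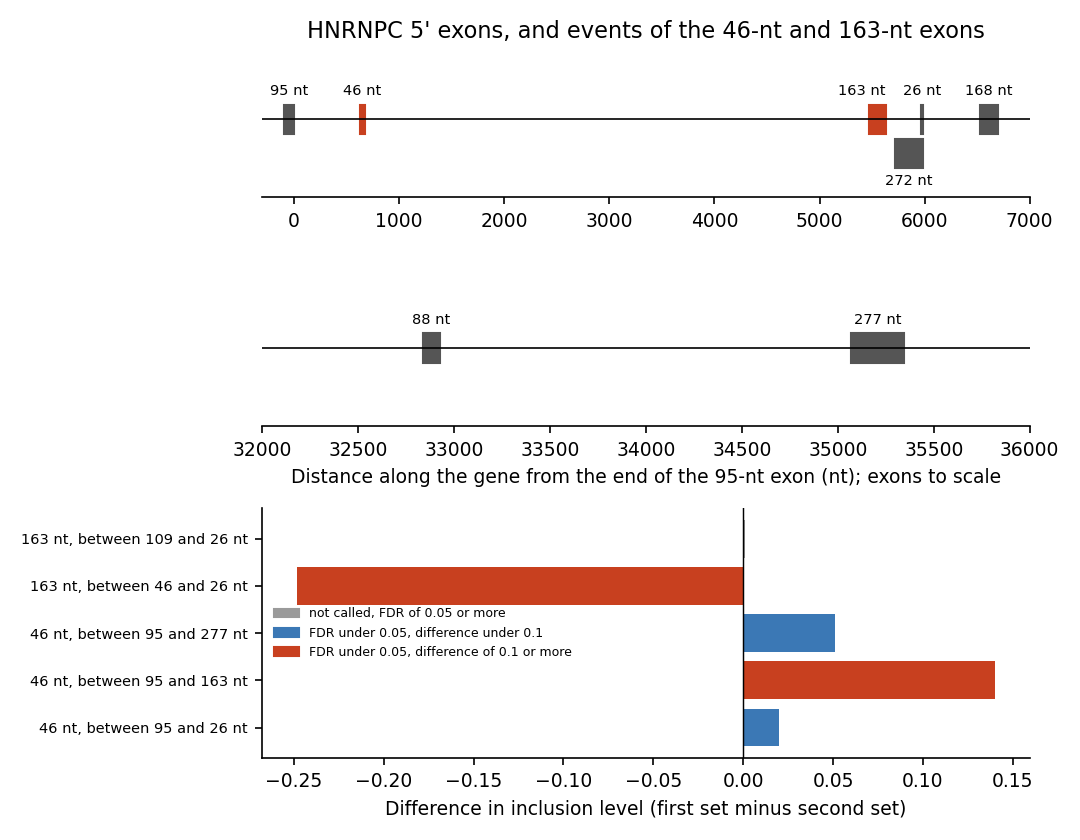
Upper rows: exons of the HNRNPC 5′ region in transcript order, to scale, by distance in nt from the end of the 95-nt exon, with a break between the rows. Lower row: bars give the difference in inclusion level (first set minus second set) of the 5 events of the 46-nt and 163-nt exons, by flanking exons; the event of the 163-nt exon after the 46-nt exon reaches -0.248 and the 3 events of the 46-nt exon are above 0.

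The remaining untranslated exons of HNRNPC differed less. The 272-nt exon, a longer form of the 26-nt exon, had 0.037 at a p-value of 0.244 in the authors' deposited table. Differences of the 26-nt exon itself were 0.008 and 0.011 with its 2 upstream partners, and the 88-nt and 168-nt exons had -0.003 each in the authors' deposited table. The coding exon was listed in forms of 158 and 161 nt, with differences of -0.001 and 0 in the authors' deposited table. Neither form has a length divisible by 3. None of these events passed the FDR limit.

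HNRNPA2B1 had 4 events in 4 exons. Its 36-nt exon, shown above, has 12 codons and keeps the reading frame, and 2 annotated transcripts skip it. Inclusion was higher in the first set by 0.111 (p-value 7.34e-10, FDR 1.3e-07) in the authors' deposited table. The other 3 exons lay close to 0. The coding exons of 120 and 81 nt had 0.004 and 0.001 in the authors' deposited table. Another of 136 nt in the 3′ untranslated region, with a match only to a decay-annotated transcript (nonsense-mediated decay), had -0.009 at a p-value of 0.898 in the authors' deposited table. In HNRNPA2B1 a single exon of 4 thus carried a called difference, and it was the exon that sets the A2 and B1 proteins apart.

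HNRNPD had 5 events in 5 exons, and the 2 that passed the FDR limit had opposite signs. The 147-nt exon, of 49 codons, was less included in the first set, with -0.088 (p-value 0.00014, FDR 0.00421) in the authors' deposited table. More included was the 57-nt exon, of 19 codons, with 0.06 (p-value 0.00271, FDR 0.0458) in the authors' deposited table. Neither reached the minimum difference of 0.1, so neither was called. Both keep the frame. Of the other exons, the 107-nt exon, found only in a transcript annotated for nonsense-mediated decay, had 0.006, the 98-nt exon with the stop codon had -0.002 and the 292-nt exon with the start codon had -0.018, each at a p-value of 1 in the authors' deposited table.

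HNRNPR had 6 events in 4 exons, and the lowest p-value of the 57 events was found there. With the 114-nt exon upstream, the 177-nt exon was more included in the first set by 0.069 (p-value 9.67e-13, FDR 3.49e-10) in the authors' deposited table. With the 108-nt exon upstream, across an intron of 14021 nt, the authors' deposited table gave the same exon 0.006 at a p-value of 1. Inclusion of the 114-nt exon itself differed by 0.019 and 0.006 in its 2 contexts in the authors' deposited table. An exon that holds the annotated start codon was listed in forms of 166 and 169 nt, at -0.083 (p-value 0.116) and -0.063 (p-value 0.214) in the authors' deposited table. Neither form passed the FDR limit, although -0.083 was, after -0.088 in HNRNPD, the largest absolute difference among the hnRNP events that were not called.

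**Figure D4:**
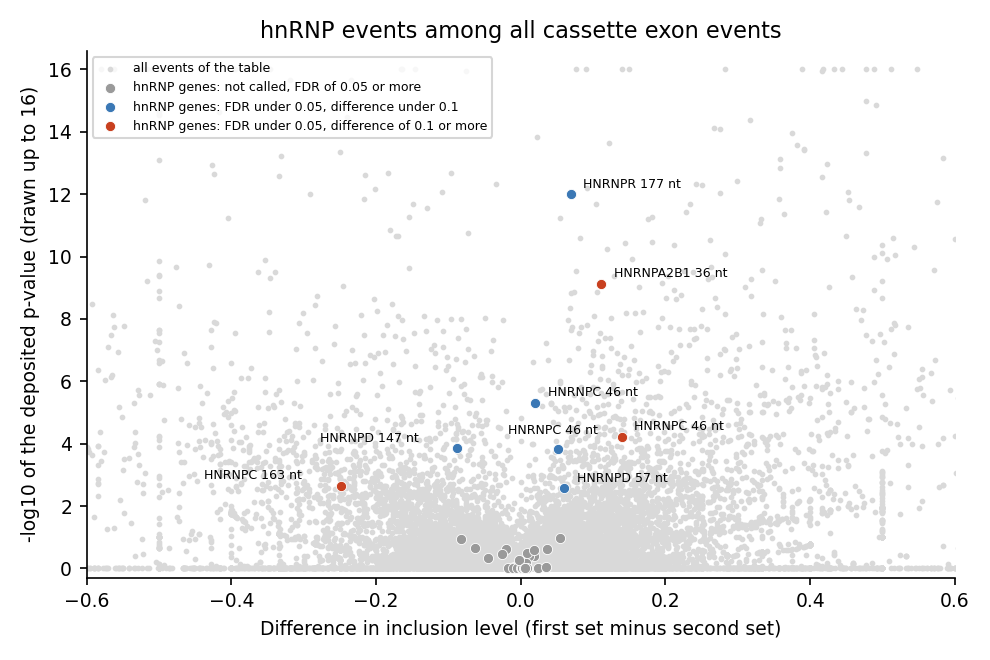
Difference in inclusion level (horizontal axis, first set minus second set) against -log10 of the deposited p-value (vertical axis, with smaller p-values drawn at its top) for the events of the whole table within the drawn range in light grey and the 57 hnRNP events in colour; labels name the 8 that passed the FDR limit. The HNRNPR 177-nt exon at 0.069 has the lowest p-value, 9.67e-13, and the HNRNPC 163-nt exon at -0.248 the largest difference.

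The glycine- and tyrosine-rich C-terminal regions of the A and D subfamilies, which mediate contacts between hnRNP proteins, are encoded in part by exons of this set. They are shown with their tyrosine codons in capitals to be compared with the 147-nt exon of HNRNPD above. The 120-nt exon of HNRNPA2B1 is at chr7:26233195-26233314 (minus strand) and the 141-nt exon of HNRNPAB at chr5:177637133-177637273 (plus strand).
HNRNPA2B1 120 nt: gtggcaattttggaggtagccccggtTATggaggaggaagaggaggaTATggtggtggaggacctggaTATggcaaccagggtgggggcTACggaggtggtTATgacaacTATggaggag
HNRNPAB 141 nt: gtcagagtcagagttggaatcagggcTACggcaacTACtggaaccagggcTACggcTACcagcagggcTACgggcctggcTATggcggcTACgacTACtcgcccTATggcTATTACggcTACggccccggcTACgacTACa

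Tyrosine codons made up 14 of 48 codons read in the HNRNPD exon, 14 of 46 in HNRNPAB and 6 of 39 in HNRNPA2B1. Over the 18298 matched coding exons of the table they made up 2.62% of codons, and 3.49% of these exons reached 10%. Among the coding hnRNP exons 6 of 32 reached 10%, among them these 3. These 3 were picked within the A and D subfamilies by this same limit of 10%. That they reach it was therefore fixed by the choice. In a global alignment the HNRNPD and HNRNPAB exons were identical at 93 of 132 aligned bases (70.5%). A further 24 positions were gaps, which this share leaves out. The HNRNPA2B1 exon was not aligned to either. The differences of these 3 exons were not alike in size. The HNRNPD exon had -0.088, while HNRNPAB had 0.019 (p-value 0.407) and HNRNPA2B1 0.004 (p-value 0.657) in the authors' deposited table. Whether HNRNPD differs from the other two was not tested.

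HNRNPA1, the best studied member of the A subfamily, had 5 events in 4 exons with differences from 0 to 0.002 in the authors' deposited table. Exons of 117 and 147 nt encode parts of the first RNA recognition motif, and a 556-nt exon spans both and the intron between them. HNRNPA1 has close copies elsewhere in the genome, and how reads shared with them were counted is not given in the sources used here. HNRNPAB, a CArG box binding factor, had a further exon of 169 nt in its first RNA recognition motif, at 0.001 with a p-value of 1 in the authors' deposited table.

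HNRNPH1 and HNRNPH3, which bind guanosine runs, had 10 events in 9 exons and 2 events in 2 exons. The authors' deposited table gave HNRNPH1 values from -0.021 for a 50-nt exon (p-value 0.243) to 0.035 for the 179-nt exon in 1 of its 2 contexts (p-value 0.924). HNRNPH3 had 0.008 for a 139-nt exon (p-value 0.672) and 0.005 for a 136-nt exon in the authors' deposited table. Both genes had a 139-nt coding exon, and these are printed to show how close the copies are, with the bases that differ in capitals. The HNRNPH1 exon is at chr5:179046270-179046408 (minus strand) and the HNRNPH3 exon at chr10:70097615-70097753 (plus strand).
HNRNPH1 139 nt: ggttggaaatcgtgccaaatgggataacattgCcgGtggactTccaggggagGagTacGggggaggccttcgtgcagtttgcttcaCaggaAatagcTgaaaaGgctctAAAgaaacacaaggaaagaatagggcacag
HNRNPH3 139 nt: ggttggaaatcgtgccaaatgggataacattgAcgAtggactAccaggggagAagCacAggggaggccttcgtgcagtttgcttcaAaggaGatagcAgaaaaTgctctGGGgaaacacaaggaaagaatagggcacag

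The 2 exons differed at 13 of 139 bases (90.6% identical) and, in the authors' deposited table, their inclusion differences were 0.002 and 0.008. Neither length is divisible by 3, so that skipping shifts the frame. The 134-nt exon of HNRNPH1 matched only transcripts annotated for nonsense-mediated decay and had -0.005 at a p-value of 1 in the authors' deposited table. HNRNPH1 also had pairs of exons that share an end, of 60 and 51 nt (0.003 and 0.024), of 139 and 92 nt (0.002 and 0.007) and of 156 and 27 nt (-0.002 and -0.01), all in the authors' deposited table and none past the FDR limit.

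HNRNPK, which binds cytidine-rich RNA through KH domains, had 3 events in 3 coding exons of 44, 55 and 72 nt. Its differences in the authors' deposited table were 0.005, 0.001 and 0.009, with the lowest p-value, 0.325, for the 72-nt exon. HNRNPM, which binds GU-rich RNA, had 8 events in 6 coding exons of 36 to 102 nt, of which 5 keep the frame. Its 54-nt exon was listed at 0.055 (p-value 0.104) after the 78-nt exon and at -0.026 (p-value 0.334) after the 102-nt exon in the authors' deposited table. Likewise, HNRNPM's 78-nt exon had 0.009 and -0.045 with its 2 downstream partners in the authors' deposited table. The 36-, 45-, 53- and 102-nt exons of HNRNPM lay between -0.002 and 0.004 in the authors' deposited table.

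Several events were listed for 9 of the 47 exons, and in 3 of these they had opposite signs: the HNRNPC 163-nt exon and the HNRNPM 54-nt and 78-nt exons. Of the events of these 3 exons only the HNRNPC event at -0.248 passed the FDR limit, and no difference between partners was tested. The remaining 6, among them the HNRNPC 46-nt and the HNRNPR 177-nt exon, had no events of opposite sign in the authors' deposited table.

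The median exon length was 117 nt among the hnRNP exons, which ranged from 26 to 556 nt, and also over the whole table. The flanking introns of the hnRNP events were shorter, with medians of 1484 nt upstream and 721 nt downstream, beside 2246 and 2095 nt over all events. Of the 47 hnRNP exons 22 had a length divisible by 3 (46.8%, Wilson 95% interval 33.3% to 60.8%, which covers counting error only), beside 40.7% of all exons. All 47 exons could be matched to GENCODE 29, 32 of them (68.1%) as fully coding exons, beside 68.1% of the matched exons of the table. Of the coding hnRNP exons 20 (62.5%) keep the frame, beside 44.7% of all coding exons. The other hnRNP exons were the 6 untranslated exons of HNRNPC, 3 exons with a start codon and 1 with a stop codon, 3 exons found only in transcripts annotated for nonsense-mediated decay and 2 found only in other transcripts.

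The 4 coding exons that passed the FDR limit, of HNRNPA2B1, HNRNPD (2 exons) and HNRNPR, all keep the frame; they are 4 of 20 such exons (20%), beside 7.43% of all frame-keeping coding exons. Of the 12 coding hnRNP exons that break the frame 0 passed, beside 4.88% of all such exons, and their 13 events ranged from -0.021 to 0.035 in the authors' deposited table. Coding or not, 14.8% of the hnRNP events with a length divisible by 3 and 13.3% of the others passed, and no difference by frame was tested. The 3 exons found only in transcripts annotated for nonsense-mediated decay ranged from -0.009 to 0.006, and 0 passed, beside 6.78% of all exons. The share over such exons of the whole table was not computed, and 3 exons are too few for a comparison. The 179-nt exon of HNRNPH1, counted as coding by its other event, matched only a decay-annotated transcript in the event at 0.035. The skipping junction was annotated in GENCODE 29 for 37 hnRNP events (64.9%, beside 49.4% of all events). All 8 hnRNP events past the FDR limit were among these 37 (21.6%, beside 9.22% of such events in the table). The 20 events without an annotated skipping junction had at most 0.045 in absolute value in the authors' deposited table. This covers the skipping junction only: both called events of HNRNPC include a junction, across 4793 nt, that was not matched to an annotated transcript.

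The RBFOX element GCATG, searched on the strand of the gene, was found in 2 of the 47 hnRNP exons (4.26%) and in 11.5% of the matched exons of the table. The longer TGCATG, which contains it, was found in 0 of 47 and in 3.18%. The introns, where RBFOX2 is known to act as well, were not analysed here. The 2 exons are printed with GCATG in capitals, the HNRNPK exon at chr9:86586587-86586641 (minus strand) and the HNRNPM exon at chr19:8536210-8536311 (plus strand).
HNRNPK 55 nt: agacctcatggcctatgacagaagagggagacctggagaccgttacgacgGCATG
HNRNPM 102 nt: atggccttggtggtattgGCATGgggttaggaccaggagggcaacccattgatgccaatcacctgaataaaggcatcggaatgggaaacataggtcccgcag

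Their differences were 0.001 and 0.004, each at a p-value of 1 in the authors' deposited table. None of the 6 exons past the FDR limit held GCATG, which says nothing of the introns beside them.

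Other genes of the hnRNP family were taken from a list of 20, of which 16 had events, 68 in all. Of these events 4 (5.88%) were called and 11 (16.2%) passed the FDR limit alone in the authors' deposited table, beside 5.15% and 6.12% of all events. The median absolute difference was 0.0095. The called events lay in PCBP2, a poly(C) binding protein, with 0.14 for a 39-nt exon (FDR listed as 0), in RALY, a relative of HNRNPC, with 0.106 for a 48-nt exon (FDR 9.47e-05), and in PTBP1, the polypyrimidine tract binding protein, with -0.106 for a 78-nt exon (FDR 0.004), all in the authors' deposited table. The fourth was a 141-nt exon of HNRNPA1L2, a close copy of HNRNPA1, with -0.237 (FDR 0.0407) in the authors' deposited table.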

How the data were processed

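RNA-seq libraries of 4 HEK293T clones (2 WT, 2 RBFOX2 KO) were represented by the authors' deposited table of skipped exons, an rMATS junction-count output per the file headers. The submitters' processing notes name STAR 2.7.3a and hg19; the rMATS version, filters and annotation are not given in the sources used here. The p-value and FDR of each event are as deposited, and the FDR equalled a Benjamini-Hochberg adjustment over the table (largest gap 1.11e-16). The inclusion difference is a score as deposited by the authors, read as first minus second set by the convention of rMATS. Inclusion was scaled by effective lengths that the authors deposited, 94 nt for skipping and at most 188 nt for inclusion. The 6 columns with values per library name no sample and were not used, so the planned fit of junction counts was not run and the precision per library is not known. All p-values come from the model of the authors with 2 clones a set, whose spread may be technical in part.

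Exons were defined by chromosome, strand, start and end and matched to GENCODE 29 (GRCh38) by gene identifier, exon length and both flanking intron lengths (49 member events) or 1 of them (8 events). None of the 47 member exons had the same GRCh38 coordinates, and none were converted. Protein-coding transcripts were preferred when an exon matched several. Alignments were global (match 1, mismatch -1, gap opening -4, extension -0.5). Named exons were all events called or with a p-value under 0.05, the lowest p-value of each gene and known isoform exons, except 1 exon that is not reported here; the others are examples. The members and lists were chosen with earlier results of these data known. Alternatives were an FDR under 0.01 or 0.1, a minimum difference of 0 or 0.2, a Bonferroni correction and other definitions of exons. Calls were tested on simulated p-values and differences. Matching was tested on structures taken from GENCODE 29 itself, which cannot show how well events in hg19 are matched. Tools were Biopython 1.88, matplotlib 3.10.9, scipy 1.17.1, numpy 2.4.6, pandas 2.3.3 and Python 3.11.15.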

Additional observations from a re-analysis of the deposited data

How the results depend on the processing

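Without a minimum difference, 8 hnRNP events in 6 exons were called (6 higher in the first set, 2 in the second) and 11 events of the other family genes. At a minimum difference of 0.2 this was 1 event in 1 exon (0 and 1) and 1 event of the other family genes. Under Bonferroni correction it was 1 event in 1 exon (1 and 0), the HNRNPA2B1 36-nt exon, 2 events of the other family genes and 472 of all events. At an FDR under 0.01, 2 hnRNP events were called, 0 of them higher in the second set, as the HNRNPC 163-nt exon (FDR 0.0389) was lost. The calls over the whole table moved as well. Of all 31408 events, 1619 (5.15%) were called under the main limits and 1923 (6.12%) without a minimum difference. At a minimum difference of 0.2 there were 1112, at an FDR under 0.01 there were 1097 and at an FDR under 0.1 there were 1945. Correcting the lowest p-value of an exon for its number of events left 1 hnRNP exon: the HNRNPC 46-nt exon has its lowest p-value in the event at 0.02, and the HNRNPC 163-nt exon had a corrected p-value of 0.0624 after Benjamini-Hochberg adjustment. The median absolute difference of the hnRNP events was 0.026 over the 27 events with a p-value under 1, beside 0.065 for all such events. The share of frame-keeping hnRNP exons was 62.5% among coding exons. The other alternatives run for these counts, an FDR under 0.1 and merging of overlapping exons, left the hnRNP counts at 3. No paired analysis was possible because no column header gives a replicate number. For the same reason no library could be left out, and how far 1 clone decides a call is not known.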
